A study of Mus musculus with 2 samples.

Results

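Single-cell RNA sequencing libraries of muscle stem cells (MuSCs) sorted from mouse plantaris also held cells that carried transcripts of blood vessel wall cells, and these vascular cells are described here. A cell was taken as vascular when mitochondrial genes gave under 10% of its unique molecular identifiers (UMIs, each standing for 1 captured mRNA molecule), when it held at least 1000 UMIs, and when it held no UMI of Pax7, the transcription factor that marks MuSCs. It was called endothelial when its UMIs of Pecam1, Cdh5, Kdr and Emcn summed to at least 4 and exceeded its sum of Rgs5, Kcnj8, Abcc9 and Myh11. It was called mural in the reverse case. The members were thus chosen by measured UMIs of these genes. The rule found 102 cells among the 3529 that passed both quality limits, 39 of them endothelial and 63 mural.

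Capillaries and larger vessels are lined by endothelial cells, which form the barrier to the blood, take up fatty acids for the muscle fibres and release signals such as nitric oxide, endothelin and platelet-derived growth factor B. Mural cells wrap that lining from outside. Pericytes sit on capillaries, and vascular smooth muscle cells ring arterioles and larger vessels with contractile proteins, and both receive the endothelial signals through their own receptors.

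Both libraries came from plantaris muscle of 26-week-old Pax7rtTA; TRE-H2B-GFP mice, in which doxycycline (2.0 mg per ml of drinking water) switches on a histone-bound green fluorescent protein (GFP) from a TRE transgene in cells that make the rtTA activator from the Pax7 locus. Sham mice had the tendon probed without any tissue being removed, and mechanical overload (MOV) mice had synergist muscle removed 5 days before collection. Each condition gave 1 library of 10x 3′ chemistry, in which the methods combine cells of several mice and the files give no mouse of origin. The methods name mice of both sexes, and among the vascular cells Xist, the RNA of the inactive X, was detected in 0 cells and Y-linked genes in 39 of 50, 24 of 26 and 25 of 26 cells of the classes defined below (core, both sums and low). The methods describe a sort for VCAM+ cells that lacked CD31, CD45 and SCA1, and the deposited protocol lists those antibodies, whereas the deposited design names the GFP signal as the criterion. Which sort made the libraries is not settled by these sources. The labels give the cell type of both libraries as muscle stem cells.

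The sham library held 1100 barcodes and 7302661 UMIs, and the MOV library 3854 barcodes and 88498487 UMIs. After the quality limits, 675 sham cells with a median of 5866 UMIs and 2854 MOV cells with a median of 23466.5 UMIs remained. The libraries shared 44 barcode sequences, and 1 of these belonged to a vascular cell. A doublet score marked 3 of the 102 vascular cells, which were kept. With 1 library per condition no test between sham and MOV was possible, and every interval given below covers counting error only.

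Endothelial cells made up 6 of the 675 sham cells (0.889%, exact 95% interval 0.327 to 1.92) and 33 of the 2854 MOV cells (1.16%, 0.797 to 1.62). Mural cells made up 7 of the sham cells (1.04%, 0.418 to 2.12) and 56 of the MOV cells (1.96%, 1.49 to 2.54). The intervals of the sham and MOV shares overlapped for both classes. At the edge of the rule, 4 MOV endothelial and 7 MOV mural cells had a sum of exactly 4. Just outside it, 13 cells on the endothelial side (3 sham and 10 MOV) and 7 on the mural side (3 and 4) had a leading sum of 3. A further 1 sham and 15 MOV cells reached a sum of 4 but held a Pax7 UMI.

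The 102 cells were not alike. They were therefore also divided, after their values had been seen, by how far each sum stood above the limit. Core endothelial cells had an endothelial sum of at least 8 and a mural sum under 4, and there were 14 of them (1 sham, 13 MOV). Core mural cells met the reverse limits and numbered 36 (4 sham, 32 MOV). In 26 cells both sums reached 4, of which 9 were called endothelial and 17 mural (5 sham and 21 MOV in all). The remaining 16 endothelial and 10 mural cells had a leading sum of 4 to 7 with the other sum under 4.

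**Figure D1:**
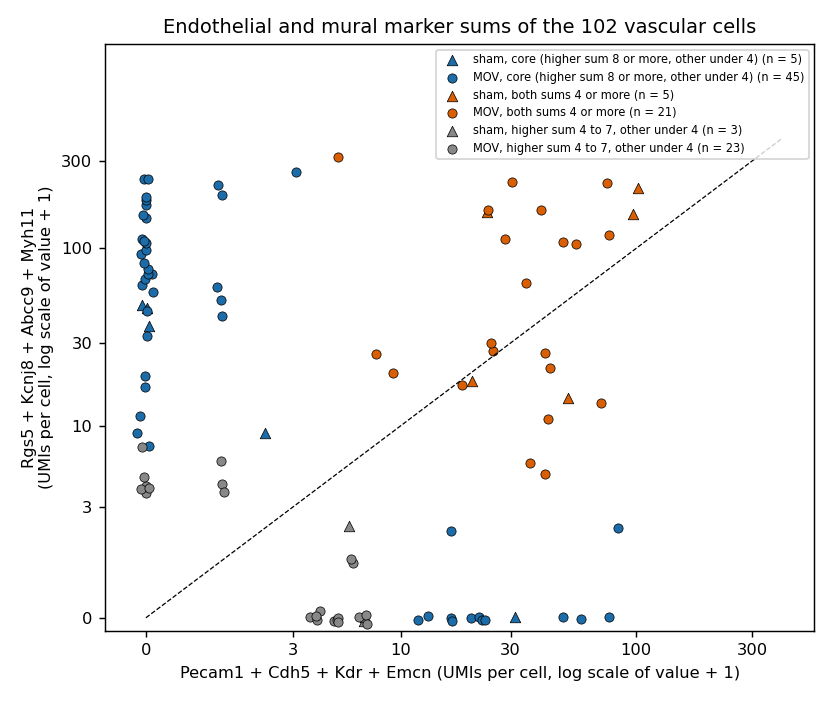
Each point is 1 vascular cell, with its endothelial marker sum (Pecam1, Cdh5, Kdr and Emcn, UMIs + 1, log axis) against its mural marker sum (Rgs5, Kcnj8, Abcc9 and Myh11, UMIs + 1, log axis), by class and library, and the dashed line marks equal sums. The 14 core endothelial cells lie along the bottom with mural sums of 0 to 2, and the 26 cells with both sums fill the space between the core classes.

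The sums that defined the cells with both sums spread widely. Their endothelial sum ran from 5 to 98 UMIs with a median of 39, and their mural sum from 5 to 317 with a median of 47.5. By comparison, the endothelial sum of the core endothelial cells ran from 12 to 81 with a median of 22.5. The doublet score of these 26 cells lay at a median percentile of 80.3 within their library (51.4 to 96.1), with 58.6 for the 9 called endothelial and 84.2 for the 17 called mural, against 60.2 in core endothelial and 61.1 in core mural cells. None of the 26 was among the cells marked as doublets. Whether each barcode holds a single cell was not tested beyond that score.

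The cells with a low leading sum were mixed in what they carried. In the 16 low endothelial cells, a list of 28 pan-endothelial genes summed to a median of 318 CPM (a count scaled to the same total of UMIs in every cell or class), with a range of 0 to 14389 in which 3 cells stood high. In the core endothelial cells the same list ran from 1599 to 15816 with a median of 9535. Instead, 13 of the 16 held at least 100 UMIs of a list of 10 fibroblast genes. Of the core cells, 0 of 14 endothelial and 18 of 36 mural cells reached that limit, which is not scaled to depth. Of the 10 low mural cells, 3 held at least 100 UMIs of a myofibre list and 2 of the fibroblast list. The 10 low mural cells held a 24-gene smooth-muscle list at 5979 to 59349 CPM with a median of 21058. In core mural cells it ran from 3456 to 136237 with a median of 26131. In the 16 low endothelial cells it ran from 1832 to 38379 with a median of 4997, and all of these ranges overlapped. Against core endothelial cells the low endothelial cells had 470 of 4254 genes called higher (11%) and 341 lower (8.02%). The pan-endothelial list was called lower in 19 of 21 genes with a median log2 ratio of -5.08, and the interstitial matrix list was called higher in 21 of 22 with a median of 5.71. Igfbp6, a binding protein of insulin-like growth factors that fibroblasts express, had 3502 CPM in low and 10.5 CPM in core endothelial cells. Against core mural cells the low mural cells had 192 of 5736 genes called higher (3.35%) and 352 lower (6.14%). The pericyte list was called lower in 15 of 20 genes and higher in 1 with a median of -3.16, and the myofibre list was called higher in 8 of 8 with a median of 4.08. For 13 of the 16 low endothelial cells the data go against the label. In the low mural cells most pericyte genes counted were called lower. Their smooth-muscle list stayed within the core mural range, but so did part of the low endothelial cells, so that list does not settle the label. The gene comparison is therefore given for the core classes, with the values for all 102 cells beside it where they differ.

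Single cells of the core classes also stood against the label. A MOV core mural cell held 610 UMIs of the myofibre list and only 109 CPM of a 26-gene pericyte list. A sham core mural cell held 303 UMIs of the fibroblast list, 189 of them from Dcn, which encodes a collagen-binding proteoglycan. In 4 of the 14 core endothelial cells an immune list gave at least 100 UMIs (115, 361, 415 and 1513). Values without those 4 cells are given where they matter.

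**Figure D2:**
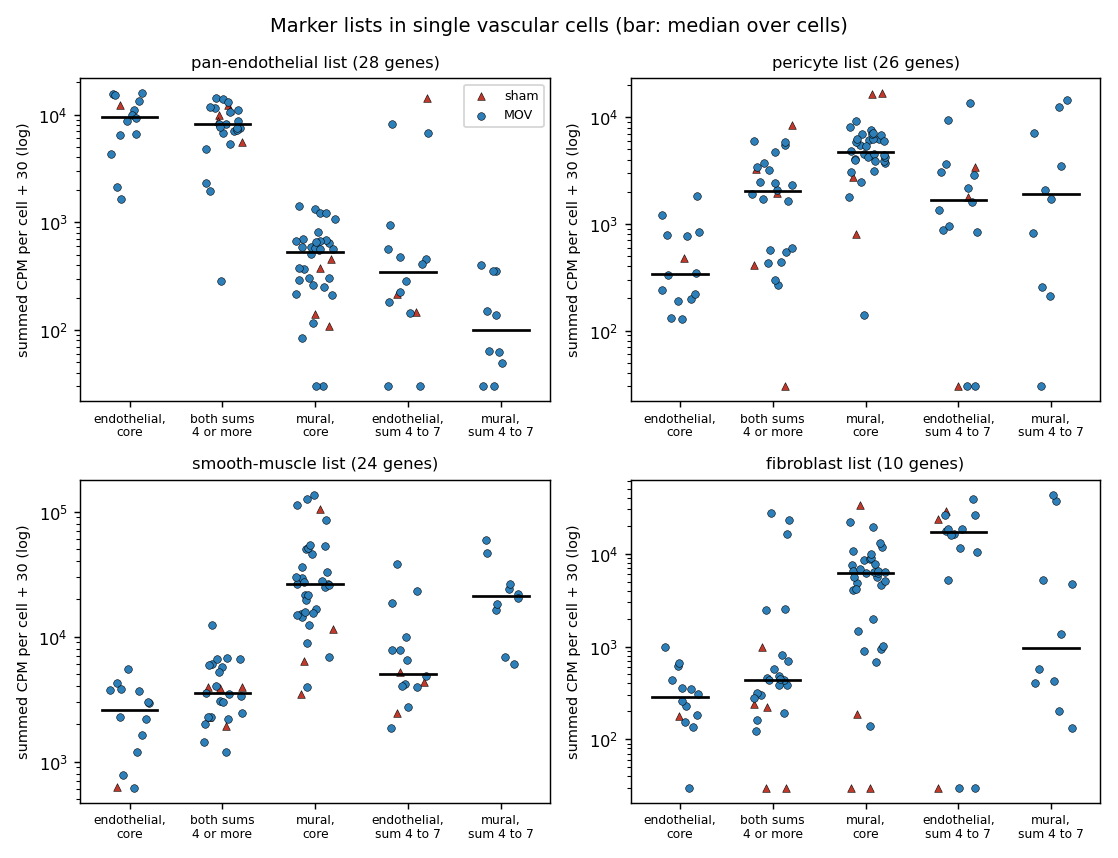
Summed level per cell (CPM + 30, log axis) of the pan-endothelial list (28 genes), pericyte list (26), smooth-muscle list (24) and fibroblast list (10) in the 5 classes, with a bar at the median and triangles for sham cells. The pan-endothelial list had a median of 9535 CPM in core endothelial cells, 8204 in cells with both sums and 500 in core mural cells, and the fibroblast list was high in most low endothelial cells.

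The 8 genes of the rule describe the classes and are no result. Cdh5 (chr8:104101625-104144511, plus strand; gene bodies from the GENCODE annotation of GRCm38), the cadherin of endothelial junctions, had 951 CPM in core endothelial cells, 968 in cells with both sums and 2.65 in core mural cells. Pecam1 (chr11:106654217-106750628, minus strand), which encodes the adhesion molecule CD31, had 799, 584 and 0 CPM. Kdr (chr5:75932827-75978458, minus strand), the main VEGF receptor, had 266, 418 and 0 CPM, and Emcn (chr3:137341067-137432185, plus strand), a sialomucin of capillaries and veins, had 407, 276 and 10.6 CPM. Rgs5 (chr1:169655501-169695813, plus strand), a regulator of G-protein signalling typical of pericytes, had 20.9, 4416 and 3538 CPM. Kcnj8 (chr6:142564837-142571614, minus strand) and Abcc9 (chr6:142587862-142702315, minus strand) encode the subunits of the pericyte potassium channel gated by ATP. They had 0 and 0 CPM in core endothelial cells, 133 and 316 in cells with both sums, and 92.7 and 176 in core mural cells. Myh11 (chr16:14194535-14291372, minus strand), the smooth muscle myosin heavy chain, had 0, 68.5 and 782 CPM.

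Thinned to 2000 UMIs per cell, Pecam1 was detected in 10 of 14 core endothelial cells, 15 of 26 cells with both sums and 0 of 35 core mural cells, 1 core mural cell being too shallow. It was detected in 1 of 869 cells that held at least 2 Pax7 UMIs, a class that should lack it and serves as the background here. Without thinning, the counts were 14 of 14, 24 of 26, 0 of 36 and 13 of 869. Rgs5 was detected after thinning in 1 of 14, 24 of 26 and 29 of 35 vascular cells, and in 8 of 869 Pax7 cells.

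The surface sort in the methods would deplete cells with CD31, CD45 and SCA1. Core endothelial cells carried the transcripts of CD31 and SCA1, and their sum also held some of CD45. Ly6a, which encodes SCA1, had 1703 CPM in core endothelial cells, 1836 in cells with both sums and 64.9 in core mural cells. Ptprc, which encodes CD45, had 78.4, 16.6 and 3.97 CPM, and it moved with the 4 cells that held immune transcripts. Vcam1, the positive marker of that sort, had 308, 66.5 and 46.3 CPM in the vascular classes and 569 CPM in the Pax7 cells. How surface protein and mRNA relate in these cells was not measured.

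Endothelial genes beyond the rule separated the core classes together. A gene was counted when it held at least 20 UMIs in the pair of classes, and called when its summed CPM differed at least 4-fold with 0.5 UMIs added to each side. Of 5511 genes counted between core endothelial and core mural cells, 374 (6.79%) were called higher in endothelial cells and 531 (9.64%) higher in mural cells. All genes of these cells are tied to the rule, so the counts and folds are descriptions and no test was run. Of the pan-endothelial list, 22 of 28 genes were counted and 20 were called higher in endothelial cells, with a median log2 ratio of 6.14, where the median over all genes counted was -0.13. Genes with no UMI in one class have no measured ratio, and with these set to a floor of 3 UMIs over that class the median was 5.61.

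Among the receptors and kinases of the endothelium, Tek, the receptor of the angiopoietins, had 125 CPM in core endothelial cells and none in core mural cells, which made it at least 31.6-fold higher. Its relative Tie1 had 157 CPM and none, at least 39.5-fold higher. Flt1, a receptor for vascular endothelial growth factor (VEGF), was less one-sided, with 899 CPM against 221 (log2 ratio 2.02, 95% interval 1.71 to 2.34). Cd34, a sialomucin, had 381 against 3.97 CPM (6.37, 4.98 to 8.90). Sox17, a transcription factor of endothelial identity, had 167 CPM and none, at least 42.1-fold higher. Cldn5, the claudin of endothelial tight junctions, had 402 CPM and none, at least 101-fold higher. Myct1, a membrane protein of endothelial cells, had 272 CPM and none, at least 68.4-fold higher. All 7 genes were also present in the cells with both sums, where Cldn5 had 436 CPM and Tek 95.6 CPM.

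Short stretches of 3 of these promoters are shown because the pan-endothelial promoters more often held the letters CAGGAA, a core bound by the ETS family of transcription factors, whose members are active in endothelial cells. The stretches are from RefSeq (GRCm38.p6, plus strand of the reference), with the motif nearest the transcript start in capitals on either strand (TTCCTG is its reverse complement). The Tek stretch opens with another TTCCTG that is left in lower case, and the promoter window covers 250 bases before to 50 after each transcript start. The Cd34 stretch is chr1:194938650-194938715, that of Myct1 chr10:5593673-5593727 and that of Tek chr4:94739200-94739265.
Cd34: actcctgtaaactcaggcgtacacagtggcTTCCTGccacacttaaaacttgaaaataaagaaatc
Myct1: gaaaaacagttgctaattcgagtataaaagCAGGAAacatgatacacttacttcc
Tek: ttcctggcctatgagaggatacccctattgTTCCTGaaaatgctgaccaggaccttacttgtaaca
The motif was present in 12 of 18 promoters of the 14 pan-endothelial genes that matched an entry (66.7%), against 10037 of all 32851 promoters (30.6%). In the capillary list it was present in 4 of 12 promoters (33.3%), near the share of all promoters. It was present in 7 of 30 pericyte promoters (23.3%) and 4 of 23 smooth-muscle promoters (17.4%). Promoters of 1 gene overlap in sequence, the lists were not drawn at random, and a match is a description and not a site.

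Genes of capillaries and of fatty acid transport were on the endothelial side. Of 15 capillary genes, 12 were counted and 9 were called higher in core endothelial than in core mural cells, with a median log2 ratio of 4.17. Fabp4, a carrier of fatty acids in the cytoplasm, had 10281 CPM in core endothelial cells, 14663 in cells with both sums and 465 in core mural cells (4.47, 4.30 to 4.64). After thinning it was found in 14 of 14, 26 of 26 and 11 of 35 cells, and in 4 of 869 Pax7 cells. Cd36, a fatty acid transporter, had 1228, 1500 and 33.1 CPM (5.19, 4.62 to 5.87). Gpihbp1, which holds lipoprotein lipase on the capillary wall, had 768, 800 and 0 CPM and was detected in 14 of 14, 23 of 26 and 0 of 36 cells, which made it at least 193-fold higher in core endothelial cells. Of the 13 genes of lipid uptake 9 were counted and 5 were called higher in core endothelial cells, with a median of 2.71. Aqp1, a water channel, had 1108, 785 and 27.8 CPM, and Car4, a carbonic anhydrase of capillaries, had 120, 58.2 and 0 CPM.

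Arterial and venous genes were thin. Only 4 of 15 arterial genes were counted, 0 called higher and 1 called lower in core endothelial cells, with a median log2 ratio of 0.27. Of 12 venous genes 9 were counted and 7 were called higher, and much of that came from 1 cell. Selp, Sele and Ackr1, adhesion molecules and a chemokine receptor of venules, had 590, 152 and 199 CPM in the core endothelial sum, and each was detected in 1 cell only.

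Contractile genes were on the mural side. Of 24 smooth-muscle genes 23 were counted and 21 were called higher in core mural cells, with a median log2 ratio of endothelial over mural of -4.54. With genes that had no endothelial UMI set to the floor, 17 were called and the median was -2.96. Acta2, smooth muscle actin, had 10.4 CPM in core endothelial cells, 326 in cells with both sums and 9292 in core mural cells (-9.47, -12.84 to -7.94). Tagln, an actin-binding protein of smooth muscle, had 209, 247 and 7355 CPM (-5.12, -5.62 to -4.69). Myl9, a myosin light chain, had 41.8, 332 and 2504 CPM (-5.82, -7.12 to -4.92). Des, which encodes the intermediate filament desmin, had 0, 87.2 and 573 CPM, at least 36.6-fold higher in core mural cells. Acta2 was not limited to mural cells in these libraries, since Pax7 cells held 709 CPM and 470 of 869 had a UMI after thinning, against 32 of 35 core mural cells.

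The promoter of 2 contractile genes is shown because it holds a motif of factors known to act on such genes. The letters CATTCC, which read GGAATG on the other strand and form the core bound by TEAD factors, are in capitals in the Lmod1 stretch, chr1:135324653-135324718. The CArG box, bound by serum response factor, is in capitals in the Myl9 stretch, chr2:156775273-156775342, and both stretches are on the plus strand.
Lmod1: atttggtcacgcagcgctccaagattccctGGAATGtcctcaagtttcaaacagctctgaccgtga
Myl9: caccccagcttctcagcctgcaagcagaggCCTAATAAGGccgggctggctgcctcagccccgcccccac
Of these, CATTCC was present in 7 of 23 smooth-muscle promoters (30.4%), 4 of 18 pan-endothelial promoters (22.2%) and 4817 of all promoters (14.7%). In the pericyte list it was present in 4 of 30 promoters (13.3%), and in the capillary list in 1 of 12 (8.33%). The CArG box was present in 1 of 23 smooth-muscle promoters, against 535 of all promoters (1.63%). Lmod1, an actin nucleator, had 0, 10.4 and 171 CPM across the 3 classes.

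Pericyte genes were on the mural side too, in a list that shares Postn with the interstitial matrix list. Of 26 pericyte genes 20 were counted and 17 were called higher in core mural cells (15 with the floor), with a median log2 ratio of -5.51 (-3.18 with the floor). Pdgfrb, the receptor for platelet-derived growth factor B, had 0 CPM in core endothelial cells, 70.6 in cells with both sums and 181 in core mural cells, at least 11.6-fold higher in the last than in the first. Notch3, the Notch receptor of mural cells, had 0, 89.3 and 266 CPM and was detected in 0 of 14, 10 of 26 and 31 of 36 cells. Pax7 cells held 53.5 CPM of Notch3. Higd1b and Cox4i2, which encode mitochondrial proteins found in pericytes, had 217 and 179 CPM in core mural cells, 174 and 147 in cells with both sums and none in core endothelial cells. Ndufa4l2, a relative of a respiratory chain subunit, had 0, 289 and 553 CPM, at least 35.3-fold higher in core mural than in core endothelial cells.

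Over all 102 cells the same lists were less far apart. Of 8335 genes counted between the 39 endothelial and 63 mural cells, 241 (2.89%) were called higher in endothelial and 275 (3.3%) in mural cells. The pan-endothelial list had a median log2 ratio of 0.93 with 0 of 28 genes called, and the pericyte list -2.75 with 15 of 22 called lower, where the median over all genes counted was 0.05. The genes that led the mural side over all members, by the bound of their counting interval, included Gm13889 (20.3 CPM in endothelial against 1544 in mural cells, in 50 mural cells), Higd1b (none against 179 CPM, in 40) and Cox4i2 (none against 149, in 41), but also Myog, which encodes a transcription factor of muscle differentiation, with 5.4 against 848 CPM from 9 mural cells. The endothelial side was led by macrophage genes such as Lyz2, which encodes lysozyme (1624 against 61.3 CPM, detected in 14 endothelial and 12 mural cells). All 10 immune genes were called higher in endothelial cells over all members. Between the core classes 9 of 9 counted were called with a median of 6.05, and without the 4 core endothelial cells above the median was -1.15.

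The order of the classes held within each library for the mural lists and not for the endothelial list. Between all endothelial and mural cells of the sham library, 1185 genes were counted, with 36 (3.04%) called higher in endothelial and 33 (2.78%) in mural cells. In the MOV library 7997 were counted, with 257 (3.21%) and 277 (3.46%). The smooth-muscle list had a median log2 ratio of -2.51 with 8 of 12 genes called in sham and -2.09 with 13 of 24 called in MOV, all higher in mural cells. The pericyte list had -2.48 with 4 of 6 called higher in mural cells and 1 in endothelial cells in sham, and -2.70 with 15 of 20 in MOV. The pan-endothelial list had -0.36 with 0 of 18 called in sham and 1.29 with 4 of 28 called in MOV. The 6 sham endothelial cells held 1 core cell, 2 with both sums and 3 low cells, and the 7 sham mural cells held 4 core cells and 3 with both sums.

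By the same bound, the genes outside the lists that stood farthest apart between the core classes included Ctla2a on the endothelial side. Ctla2a, which encodes a cathepsin inhibitor, had 1844 CPM in 13 of 14 core endothelial cells and none in core mural cells, at least 464-fold higher. Serpine2, a protease inhibitor, had 1637 CPM in core mural cells, in 34 of 36 of them, against 1 UMI in core endothelial cells (-7.71, -13.60 to -5.81). Igfbp5, another binding protein of insulin-like growth factors, had none in core endothelial and 891 CPM in core mural cells, at least 56.8-fold higher in the latter. Ccl11, a chemokine for eosinophils, had none and 785 CPM, at least 50.1-fold higher.

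Single ligand and receptor genes were split between the classes, not all in the same direction. Pdgfb, which encodes the ligand that recruits pericytes, had 104 CPM in core endothelial and 9.27 CPM in core mural cells (log2 ratio 3.43, 2.20 to 4.98), opposite to its receptor gene Pdgfrb. Pdgfa, another ligand of the family, ran the other way with 214 against 594 CPM (-1.46, -1.97 to -1.01). Edn1, the gene of endothelin, had 47 CPM and none, at least 11.8-fold higher in endothelial cells, but it held too few UMIs to be counted. The endothelin receptor gene Ednra had none in endothelial and 110 CPM in core mural cells, at least 7.01-fold higher. The other endothelin receptor gene, Ednrb, was present in both, with 209 against 375 CPM.

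Nitric oxide genes were also divided. Nos3, the endothelial nitric oxide synthase, had 62.7 CPM in core endothelial cells and none in core mural cells, at least 15.8-fold higher. Nos3 held too few UMIs in the core classes to be counted, so the endothelial side rests on few molecules. Gucy1a1 and Gucy1b1, which encode the subunits of the guanylate cyclase that senses nitric oxide, had none in core endothelial cells and 171 and 161 CPM in core mural cells. Prkg1, the kinase downstream of the cyclase, had none and 60.9 CPM. Of 19 vasoactive genes 9 were counted and 7 were called higher in core mural cells, 5 of them with the floor.

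In the Notch pathway, the ligand gene Dll4 had 41.8 CPM in core endothelial cells and none in core mural cells. Notch1 had 162 against 38.4 CPM (2.08, 1.30 to 2.86) and Notch4 47 against 1.32 (4.64, 2.30 to 10.60), whereas Heyl, a target gene of the pathway, had none against 38.4. Dll4 and Notch4 held too few UMIs in the core classes to be counted. Of 13 Notch genes 7 were counted, 1 called higher and 2 called lower in endothelial cells. The sphingosine phosphate receptor genes parted in the same way, S1pr1 with 219 against 5.29 CPM (5.22, 3.91 to 7.31) and S1pr3 with 5.22 against 76.8 (-3.30, -9.21 to -1.34).

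**Figure D3:**
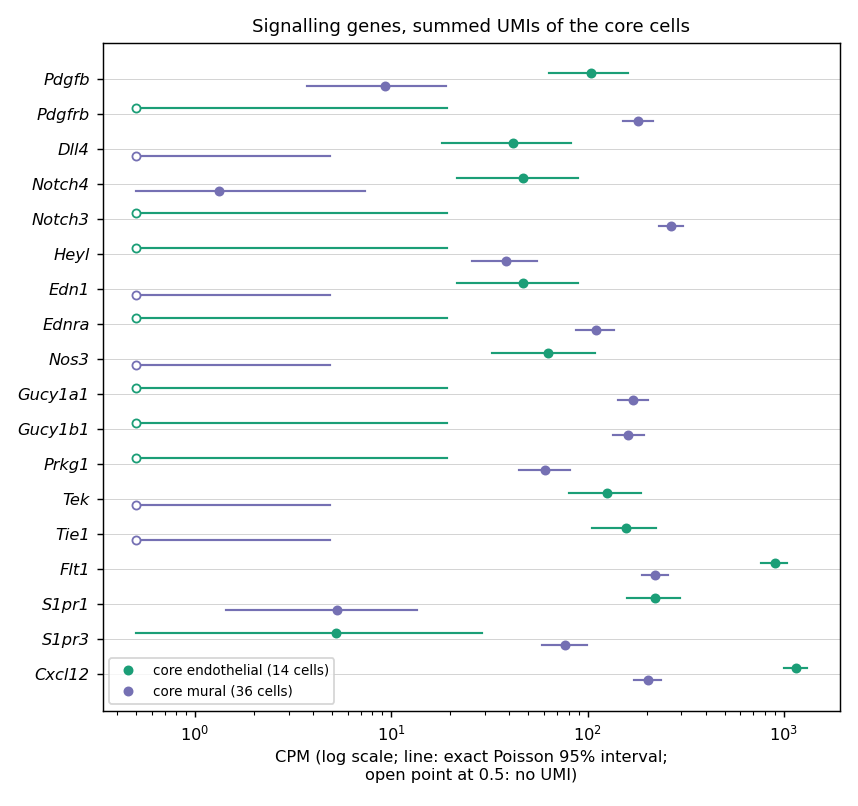
Summed CPM (log axis) of signalling genes in the 14 core endothelial and 36 core mural cells, with exact Poisson 95% intervals as lines and an open point at 0.5 for a gene with no UMI. Pdgfb, Dll4, Edn1, Nos3 and S1pr1 stood higher in core endothelial cells, and Pdgfrb, Notch3, Ednra, Gucy1a1 and S1pr3 in core mural cells. Dll4, Edn1 and Nos3 held too few UMIs in the core classes to be counted.

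Chemokines were divided between the classes. Cxcl12, which retains CXCR4-bearing cells, had 1149 CPM in core endothelial and 203 CPM in core mural cells (2.50, 2.20 to 2.81). Ccl2, a chemokine for monocytes, had 1259 against 3793 CPM (-1.59, -1.79 to -1.40). In single cells it was 0 in the sham core endothelial cell and ran from 0 to 11616 CPM with a median of 75.8 in the 13 MOV core endothelial cells, 7 of which held a UMI, so few cells carried the endothelial sum. Ccl19, a chemokine for lymphocytes and dendritic cells, had none against 458 CPM. Of 14 chemokine and homing genes 11 were counted, 7 called higher and 1 called lower in core endothelial cells.

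Many interferon-induced and antigen presentation genes were called higher on the endothelial side, but fewer without the 4 cells that held immune transcripts. Of 17 genes in that list 16 were counted and 12 were called higher in core endothelial cells, with a median log2 ratio of 2.75. Without the 4 cells that held immune transcripts, 14 were counted, 6 were called higher and 1 lower, and the median was 1.89, where 5.41% of 5143 genes counted were called higher and 12.1% lower. Iigp1, an interferon-induced GTPase, had 1578 CPM in core endothelial cells, 1078 in cells with both sums and 102 in core mural cells, in 13 of 14, 24 of 26 and 15 of 36 cells. H2-K1, a class I histocompatibility gene, had 1844 against 299 CPM, and 1782 CPM in endothelial cells without those 4. Cd74, the chaperone of class II molecules, had 1625 CPM in core endothelial cells but 28 CPM without those 4 cells.

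The matrix genes separated by kind. Of 18 basement membrane genes 14 were counted and 1 was called, higher in core mural cells, and the median log2 ratio was -0.59. Col4a1, a chain of the type IV collagen of basement membranes, had 1557 CPM in core endothelial and 1815 in core mural cells (-0.22, -0.41 to -0.04), and its partner Col4a2 had 763 against 784 (-0.04, -0.31 to 0.22). The called gene, Col18a1, which encodes the collagen that releases endostatin, had 94 against 765 CPM. Of 23 interstitial matrix genes 22 were counted and 19 were called higher in core mural cells, with a median of -3.90. Col1a1, the main chain of type I collagen, had 47 CPM in core endothelial cells, 1190 in cells with both sums and 2361 in core mural cells (-5.57, -6.78 to -4.72). Col3a1, the chain of type III collagen, had 94, 2185 and 3269 CPM.

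The fibroblast list shares Col1a1, Col3a1, Dcn and Lum with the interstitial matrix list, so these lists were bound to move together in part. The fibroblast list ran from 0 to 9 UMIs in core endothelial cells and from 0 to 544 in core mural cells, where 18 of 36 cells held at least 100. All 5 fibroblast genes counted were called higher in core mural cells. Their part in the matrix values was not tested. Over all 102 cells the interstitial list had a median of 0.23 and the fibroblast list 1.53, on the endothelial side, where the 16 low endothelial cells lie.

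The cells with both sums differed in how much of the pericyte list they held. The 9 called endothelial held the pericyte list, which leaves out the rule genes, at 0 to 5509 CPM with a median of 404, and the 17 called mural at 409 to 8413 with a median of 2444. The pericyte list includes Postn, which is in the interstitial matrix list too and reached 5192 CPM among the MOV cells called endothelial. In core endothelial cells the pericyte list ran from 97.6 to 1794 with a median of 309, so the 9 overlapped with them. The sums that follow pool all 26 cells. Against core endothelial cells, 4428 genes were counted, of which 149 (3.36%) were called higher and 116 (2.62%) lower. The pan-endothelial list differed by a median of -0.05 with 0 of 28 genes called, and the pericyte list by 4.86 with 11 of 14 called higher (2.42 with the floor). Against core mural cells, 6351 genes were counted, of which 369 (5.81%) were called higher and 251 (3.95%) lower. There the pericyte list differed by -0.98 with 3 of 21 called lower, the pan-endothelial list by 6.26 with 25 of 28 called higher (5.16 with the floor), and the smooth-muscle list by -2.91 with 18 of 23 called lower. These cells held Acta2 at 0 to 2307 CPM with a median of 181, and Rgs5 at 366 to 12625 CPM with a median of 3702. In core mural cells Acta2 ran from 0 to 32147 CPM with a median of 5666, and Rgs5 from 0 to 19360 with a median of 3339. The ranges overlapped for both genes.

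Core mural cells were themselves divided by which rule gene led them. In 5 of the 36 (1 sham, 4 MOV) Myh11 held more UMIs than Rgs5, Kcnj8 and Abcc9 together, and Rgs5 was 0 UMIs in each of them. Myh11 was used to make this split and ran from 32 to 103 UMIs in these 5 cells. Between them and the other 31, 4625 genes were counted, of which 153 (3.31%) were called higher and 491 (10.6%) lower in the Myh11-led cells. Of the smooth-muscle list 13 of 23 genes were called higher, with a median of 2.10 (2.06 with the floor). The 5 cells held the list at 45817, 104297, 112601, 124925 and 136237 CPM.

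In the Myh11-led cells Acta2 had 22515 CPM against 7480 in the other core mural cells, and Cnn1, the calponin of contractile smooth muscle, had 967 against 61.7. Pln, phospholamban, which restrains the calcium pump, had 549 against 4.51 CPM and was detected in 5 of 5 and 1 of 31 cells. Pericyte genes followed no single direction, with 4 called lower and 1 higher of 19 and a median of 0.15. Pdgfrb had 176 against 182 CPM and Notch3 384 against 250, whereas Steap4, a metalloreductase, had 0 against 143 CPM and Vtn, vitronectin, 0 against 351. Matrix and chemokine genes were lower in the Myh11-led cells. Of 22 interstitial matrix genes 15 were called lower and 1 higher, and 8 of 8 chemokine genes were called lower, with Postn, periostin of the matrix, at 11 against 1153 CPM and Ccl2 at 98.8 against 4300.

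**Figure D4:**
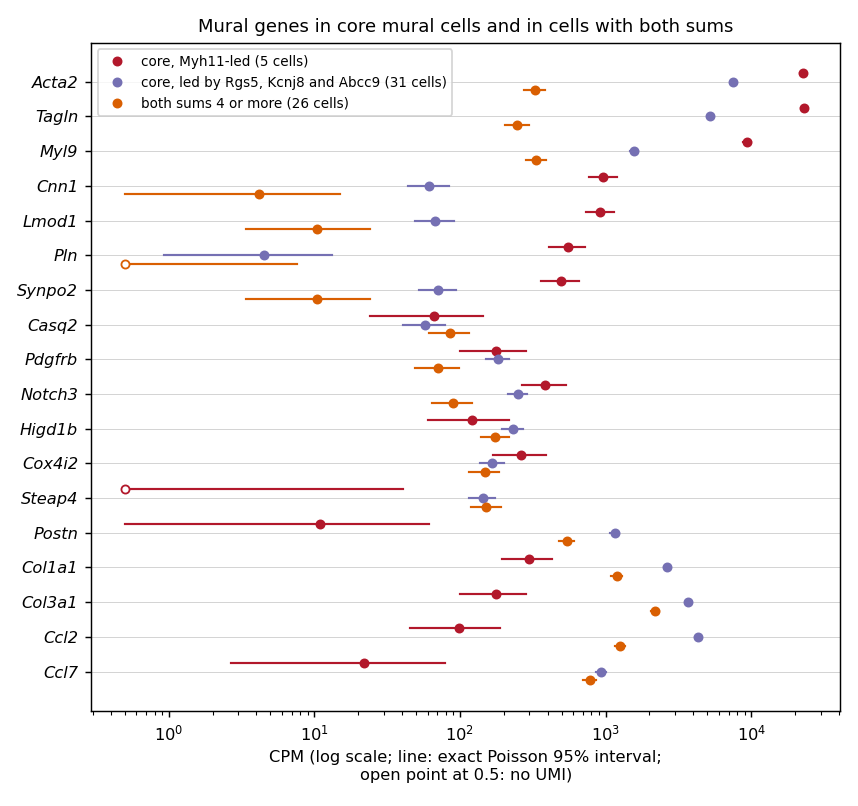
Summed CPM (log axis) of contractile, pericyte, matrix and chemokine genes in the 5 core mural cells led by Myh11, the 31 led by Rgs5, Kcnj8 or Abcc9, and the 26 cells with both sums, with exact Poisson 95% intervals as lines and an open point at 0.5 for a gene with no UMI. Acta2, Cnn1 and Pln stood highest in the Myh11-led cells, and Postn, Col1a1 and Ccl2 in the other core mural cells.

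MOV and sham vascular cells were compared within each class. The sums of the sham cells were shallow, with 57707 UMIs in 6 endothelial and 90259 in 7 mural cells, against 682427 and 1311823 in MOV. Of 4938 genes counted in endothelial cells, 529 (10.7%) were called higher and 135 (2.73%) lower in MOV, and for 250 (5.06%) and 135 the counting interval also lay clear of no difference. Of 6779 genes counted in mural cells, 600 (8.85%) were called higher and 344 (5.07%) lower in MOV, and 305 (4.5%) and 344 were clear by interval. The balance of higher and lower calls turned with the number of UMIs added to each side. With the larger number given in the last section, 39 genes were called higher in MOV endothelial cells and 44 in MOV mural cells. Lower calls then outnumbered higher calls in both classes. Without the cells with both sums, 345 genes were called higher in MOV mural cells. Depth and mitochondrial share moved with condition. Core mural cells held 2372 to 12800 UMIs in sham and 1965 to 86266 in MOV, with median mitochondrial shares of 6.3% and 3.9%, and their part in the differences was not tested.

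Some immediate-early genes, a group switched on soon after a stimulus, were called lower in MOV. Of 16 such genes, 4 were called lower and 0 higher in endothelial cells with a median log2 ratio of MOV over sham of -1.29, and 6 lower and 0 higher in mural cells with a median of -1.62. The medians over all genes counted were 0.07 and -0.09, and 2.73% and 5.07% of all genes counted were called lower. Egr1, a transcription factor of this group, ran from 3594 to 11797 CPM with a median of 7791 in the 4 sham core mural cells, and from 0 to 5063 with a median of 147 in the 32 MOV core mural cells. The ranges overlapped. In the mural sums Egr1 had 4675 CPM in sham and 470 in MOV (-3.32, -3.50 to -3.13). In the endothelial sums it had 2790 and 724 CPM (-1.95, -2.21 to -1.68). Fos, a subunit of the AP-1 factor, had 6498 and 901 CPM in endothelial and 4963 and 992 in mural cells. Without the low cells the endothelial Fos values were 1458 and 748 CPM. Per cell without them, Egr1 ran from 2759 to 4298 CPM with a median of 2827 in 3 sham endothelial cells. In 20 MOV endothelial cells it ran from 0 to 7425 with a median of 414. The other endothelial sums and counts of this paragraph include the low cells, 3 of the 6 sham and 13 of the 33 MOV cells. Klf2, a transcription factor that responds to shear stress in endothelium, had 1456 CPM in sham and 315 in MOV endothelial cells. Hes1, a Notch target, had 849 and 126 CPM in endothelial and 842 and 170 in mural cells. In Pax7 cells Fos had 262 CPM in sham and 320 in MOV, and in 236 cells with at least 4 Pdgfra UMIs, a marker of fibro-adipogenic progenitors, 3791 and 950. Of the 16 immediate-early genes 1 was called lower in MOV Pax7 cells, with a median of -0.37, where 2.53% of all genes counted were, and 4 in MOV Pdgfra cells, with a median of -1.70, where 5.91% were.

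Many interstitial matrix genes were called higher in the MOV sums. In mural cells 15 of 23 were called higher and 1 lower, with a median of 2.46, and in endothelial cells 14 of 22 were called higher with a median of 2.92. Without the low cells these were 12 of 23 (median 2.44) in mural cells, where 9.22% of 5924 genes were called higher and 4.12% lower. In endothelial cells without the low cells these were 15 of 18 (median 3.95), where 14.7% of 2614 were called higher and 2.26% lower. With genes at 0 in sham set to the floor, that median was 1.77. Per cell, the list without the low cells ran from 1031 to 1934 CPM with a median of 1861 in 3 sham endothelial cells and from 581 to 54886 with a median of 2568 in 20 MOV endothelial cells. In core endothelial cells the list was 1934 CPM in the 1 sham cell and 581 to 5268 with a median of 2449 in 13 MOV cells. In low endothelial cells its median was 23457 CPM in sham and 22023 in MOV. The highest value without the low cells, 54886 CPM, was in a MOV cell with both sums. The fibroblast list reached 1282 UMIs among the MOV endothelial cells with both sums. Fibroblast-list UMIs, not scaled to depth, had a median of 1 (0 to 303) in sham and 118 (4 to 544) in MOV core mural cells. In all mural cells these UMIs had medians of 2 and 47. The fibroblast list shares genes with the interstitial matrix list, and its part in the matrix differences between MOV and sham was not tested. Timp1, an inhibitor of matrix metalloproteinases, was listed in 0 of 3 sham and 15 of 20 MOV endothelial cells without the low cells, at 0 to 878 CPM with a median of 133 in MOV, where 3 UMIs over the 3 sham cells would be 107 CPM. Low MOV endothelial cells held it at up to 5607 CPM. In core mural cells it was detected in 0 of 4 sham and 28 of 32 MOV cells. Postn was detected in 0 of 4 sham core mural cells and 28 of 32 MOV core mural cells, at a median of 736 CPM. These Timp1 and Postn counts are without thinning, and core mural cells had a median of 5925.5 UMIs in sham and 20806.5 in MOV. Col3a1 had 277 CPM in sham and 3850 in MOV mural cells, a log2 ratio of 3.77. In core mural cells it was 185 and 3384 CPM, with UMIs in 1 of 4 and 31 of 32 cells. Thinned to 2000 UMIs, it was detected in 0 of 4 and 26 of 31. In Pax7 cells 5 of 23 interstitial genes were called higher in MOV, where 2.85% of 12590 counted genes were, and in Pdgfra cells 3 of 23, where 4.54% of 11075 were. Whether the MOV effect on this list differed between the classes was not tested.

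Several chemokine genes were also higher in MOV. Of 12 counted in endothelial cells, low cells included, 6 were called higher and 0 lower with a median of 1.39. With the floor 3 were called and the median was 0.34. Of 9 counted in mural cells, 6 were called higher in MOV and 0 lower, with a median of 2.54 (2.28 with the floor). Ccl2 had 99.7 CPM in sham and 2702 in MOV mural cells (4.68, 3.83 to 5.89). In core mural cells it was 0 in all 4 sham cells and 0 to 17111 CPM with a median of 1508 in MOV, where 27 of 32 cells held a UMI. Thinned to 2000 UMIs, it was found in 0 of 4 and 18 of 31. Ccl2 had 570 CPM in sham and 428 in MOV Pax7 cells, and 1110 and 2595 in Pdgfra cells. Ccl7, a related chemokine, had none in sham and 599 CPM in MOV mural cells.

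Contractile genes gave different pictures in sums and in single cells. The smooth-muscle list in mural cells had a median of 0.12 with 2 of 24 genes called higher and 1 lower in MOV, and the pericyte list -0.24 with 2 higher and 1 lower of 21. Per core mural cell, the smooth-muscle list ran from 3456 to 104297 CPM with a median of 8887 in sham and from 3906 to 136237 with a median of 26413 in MOV, and the ranges overlapped. Acta2 had 4033 CPM in sham and 6561 in MOV mural cells, and it was at 0 in 3 of the 4 sham core mural cells and at 27656 in the other, against 96.4 to 32147 in MOV core mural cells with UMIs in all 32. That 1 sham cell set the sham sum, and after a separate random thinning of each library's cells Acta2 was detected in 1 of 4 sham and 30 of 31 MOV cells. In endothelial cells the pan-endothelial list had a median of -0.88 with 1 gene called higher and 1 lower of 27. Of 12 capillary genes 2 were called lower and 0 higher with a median of -1.30, and Car4 had 312 CPM in sham and 35.2 in MOV (-3.16, -4.09 to -2.18). Without the low cells Car4 had 569 and 75.8 CPM. In mural cells the summed pan-endothelial list was lower in MOV, with 15 of 26 genes called lower and 0 higher and a median of -2.12. This came from the sums and not from the typical cell. Per cell, the list had a median of 422 CPM in sham and 541 CPM in MOV mural cells, and of 229 and 530 in core mural cells, whereas the 3 sham mural cells with both sums held 5512 to 10955 CPM. Cells with both sums were 3 of the 7 sham and 14 of the 56 MOV mural cells. Sox18, a transcription factor of endothelial cells, had 355 CPM in sham and 9.15 CPM in MOV mural cells, from 2 and 6 cells.

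**Figure D5:**
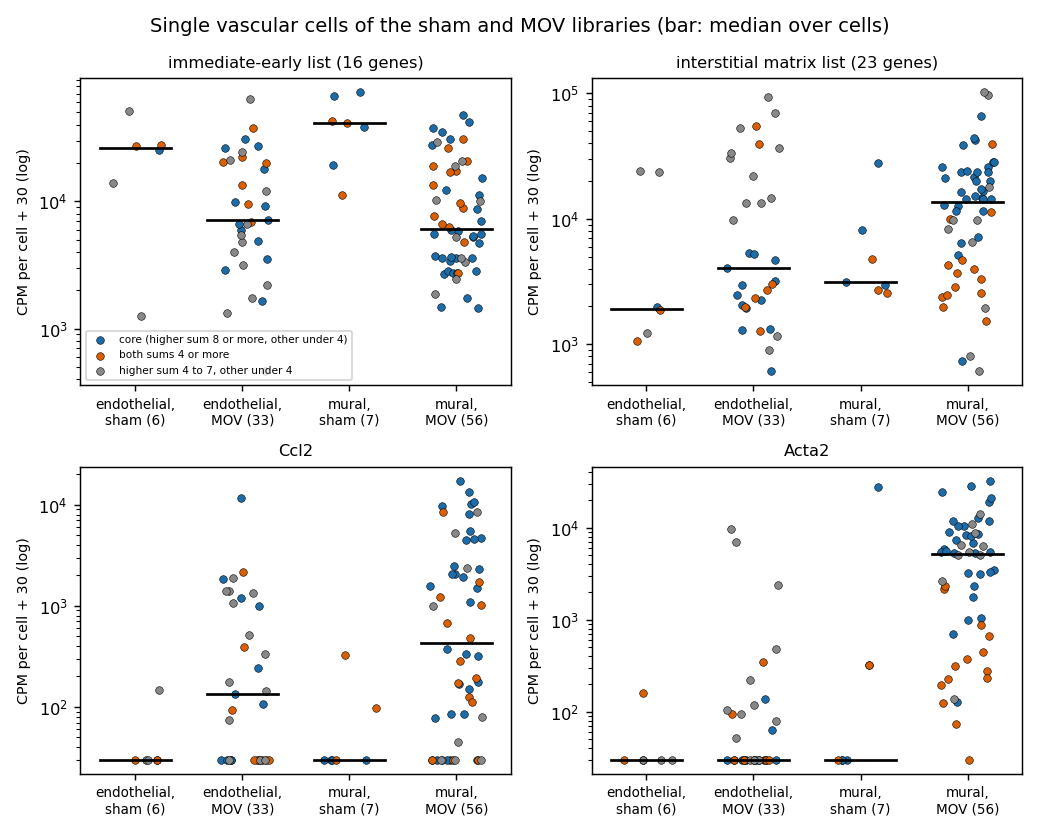
Level per cell (CPM + 30, log axis) of the immediate-early list, the interstitial matrix list, Ccl2 and Acta2 in sham and MOV endothelial and mural cells, coloured by class, with a bar at the median of all cells in a column. Among core mural cells the immediate-early list had a median of 52657 CPM in 4 sham and 5270 CPM in 32 MOV cells, and Ccl2 was 0 in all 4 sham cells.

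Counts of cell cycle genes depended on the genes with no UMI in sham. Of 12 proliferation genes counted in endothelial cells, 9 were called higher in MOV with a median of 2.50, but with sham genes at 0 set to the floor 0 were called and the median was -0.08. In mural cells 10 of 16 were called higher and 3 with the floor, with medians of 2.51 and 0.80. Between the core classes 14 of 18 proliferation genes were counted, 0 called higher and 1 called lower in endothelial cells, with a median of -1.09.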

How the data were processed

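The authors aligned reads to mm10 (build 2020-A) with Cell Ranger 6.0.0 and deposited filtered matrices of UMI counts, whole numbers with no normalization. The submitters' notes also name R 4.0.2 and Seurat 4.0.2.

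The members and gene lists were chosen with earlier results of these data known. The classes by marker sum and the alternatives added to them were chosen after seeing the data. Counts were summed per class and divided by the class total (CPM, Python 3.11.15, numpy 2.4.6, pandas 2.3.3). Ratios have 0.5 UMIs added and exact binomial intervals (scipy 1.17.1), shares Clopper-Pearson intervals. A gene needed 20 UMIs in both sums together and a 4-fold difference to be called. Intervals and the floor of 3 UMIs, taken over a class, cover counting error only. Doublets were scored with scanpy 1.11.5 at 0.8% per 1000 cells. Genes named beside the rule genes and lists were ranked by how far the near end of the counting interval stood from equal levels, 12 on each side between classes (100 UMIs or more) and 8 between conditions, of which some are printed. With 1 library per condition no differential test was run. edgeR 4.0.16 and DESeq2 1.42.0 gave scaling factors only. The steps were tested on simulated data. Levels were compared between cells within a gene and not between genes.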

Additional observations from a re-analysis of the deposited data

Results flagged for a closer look

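In 3 genes the difference between MOV and sham had opposite directions in endothelial and mural cells, and the difference between the classes was not tested. Myl1, a fast myosin light chain, had a log2 ratio of MOV over sham of -3.70 in endothelial cells (10 UMIs in MOV, 11 in sham) and 2.05 in mural cells (510 and 8). Acta1, skeletal muscle actin, had -2.66 in endothelial cells (36 and 19) and 3.47 in mural cells (2008 and 12). Trim30a, an interferon-induced gene, had 3.15 in endothelial cells (52 and 0, so this is a fitted value with 0.5 UMIs added and no measured ratio) and -2.14 in mural cells (21 and 6). Myofibre-list UMIs were high in 3 of the 10 low mural cells, all from MOV, and the part of these cells in the Myl1 and Acta1 values was not tested.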

How the results depend on the processing

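No paired analysis was possible because each condition has 1 library. Depth limited most the sham sums. Over the settings tried, 268 of 304 alternative list medians moved by less than 1 on the log2 scale, and 2570 of 2878 alternative gene ratios kept their direction and their side of the 4-fold limit. The cause of the changes below was not tested, beyond the number of cells or genes that each setting leaves.

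Shares of cells moved as follows. The mural sham share was 3.30% at a mitochondrial limit of 20%. The endothelial MOV share was 0.701% with sums of at least 8 or without the low cells and 0.456% for core cells, and the endothelial sham share for core cells was 0.148%. The mural MOV share was 2.59% among cells without fibroblast or immune transcripts, 1.16% without Rgs5, 1.47% without the cells with both sums and 1.12% for core cells.

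The count of genes higher in endothelial than mural cells was 530 without Rgs5, 374 for core cells, 1495 with no minimum, 58 with a minimum of 100 UMIs and 36 in sham alone. The reverse count was 439 with sums of at least 8 or without the low cells, 531 for core cells, 718 with no minimum, 99 with a minimum of 100, 143 with 5 UMIs added and 33 in sham alone. Genes higher in MOV endothelial cells numbered 118 with a minimum of 100 and 39 with 5 UMIs added, and those lower 1273 with no minimum, 21 with a minimum of 100, 388 with 5 added and 59 without the low cells. Genes higher in MOV mural cells numbered 208 with a minimum of 100, 44 with 5 added and 345 without the cells with both sums, and those lower 3309 with no minimum, 52 with a minimum of 100 and 1026 with 5 added.

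Among lists with a median of at least 1 in size over all cells, the endothelial over mural log2 ratio turned direction for the lymphatic list (-0.49 with no minimum), for the angiopoietin, MuSC and myofibre lists (-0.20, 0.24 and 0.83 in sham alone) and for the fibroblast list (-3.30 in core cells). Lists with smaller medians turned too, among them the pan-endothelial list (-0.36 in sham alone) and the interstitial matrix list (-3.90 in core cells). Among genes at least 4-fold apart, it turned for Acta1 (1.29) and Tnnt3 (0.37) in sham alone and for Dcn (-3.20), Sfrp5 (-3.75) and Myl1 (0.014) in core cells.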
